A study of Mus musculus with 6 samples.

Results

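The 87 genes described here encode subunits of the Mediator complex and of RNA polymerases I, II and III, together with the TAF proteins and the general transcription factors of the TFIIA to TFIIH and TFII-I families. They were found by their gene symbols on the array platform (Med with a number, Polr1, Polr2 or Polr3, Taf with a number, and Gtf2) and by a signal of 100 or more on at least 1 of 6 arrays. They are 87 of 9678 genes measured in this way. Of the 93 symbols that matched, 6 (Gtf2a1l, Gtf2ird1, Med12l, Taf7l, Taf7l2 and Taf9b) stayed under 100 on all 6 arrays. The cells were murine (Mus musculus) pre-B cell lines transformed with the v-abl oncogene and derived from WT mice that carried an Eμ-Bcl2 transgene, in which a B lineage enhancer drives the survival gene Bcl2. Both groups were therefore v-abl-transformed, carried Bcl2, and had spent 48 hours in 3 μM STI571 (imatinib), which blocks the Abl kinase and holds the cells in G1. Cells of each of 3 independently derived lines were split between the doses, so that n = 3 lines for mock irradiation (0 Gy) and n = 3 for 1 Gy of γ-rays, given at 0.72 Gy per minute and followed by 2 hours of culture. The question of the study was which transcripts change when radiation breaks DNA in pre-B cells held in G1. The age and the strain of the mice were not given in the sources used here, and each line is a single transformed line.

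RNA polymerase II transcribes protein-coding genes, RNA polymerase I transcribes the precursor of the large ribosomal RNAs, and RNA polymerase III makes transfer RNAs, 5S ribosomal RNA and other short RNAs. The general transcription factors place RNA polymerase II at a promoter, with TFIID, built from the TATA-binding protein and TAF subunits, reading the promoter first, and TFIIH opening the DNA. Mediator is a large complex of head, middle and tail modules, to which a kinase module can attach, and it carries signals from DNA-bound activators to RNA polymerase II. Most of these proteins are needed in every cell.

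The values were MAS5 signals, linear intensities in arbitrary units for a probe set, that is, for several short oligonucleotides that together report on a transcript. Of the probe sets of a gene, the one with the highest mean log2 signal was used. Signals were compared on the log2 scale by limma with the cell line as a block (paired by replicate number), and a gene was called where its p, adjusted by Benjamini-Hochberg over all 21762 probe sets tested, was under 0.05. Of the 87 members, 85 reached 100 on all 6 arrays. The defining transcripts of pre-B cells were present, as 11 of 11 markers reached 100 with summed signals of 118390.0 to 122828 on mock and 94474 to 124577 on irradiated arrays. Among them Rag1, Rag2 and Dntt fell (log2 changes of -1.77, -2.40 and -0.94, limma adjusted p of 0.0110, 0.0103 and 0.0198). The other pre-B cell markers were not called. Of 5 plasma cell markers 4 reached 100, and they went different ways. Irf4, which pre-B cells also express, rose from a mean signal of 10379 to 20861 and carried the summed signal (15636 to 17177 on mock and 23226 to 25774 on irradiated arrays), whereas Xbp1 and Sdc1 fell (log2 changes of -0.78 and -0.65, limma adjusted p of 0.0443 and 0.0461) and Prdm1 was not called. Jchain stayed under 100. All 6 T cell, all 3 erythroid and all 5 stromal markers stayed under 100. Of 7 myeloid markers, 1 (Itgam) reached it, and the summed signal was 254 to 337 on mock and 396 to 484 on irradiated arrays. Itgam was called higher (log2 change 0.87, limma adjusted p = 0.0227). RNA quality was read from β-actin control probe sets at both ends of the transcript. Their 3'/5' ratio averaged 1.45 ± 0.05 (SD) over the 3 mock arrays and 1.32 ± 0.06 over the 3 irradiated ones (p = 0.1 in a two-sided exact permutation test, which cannot give less for 3 against 3), and it was lower after 1 Gy in 3 of 3 lines. The same ratio for Gapdh was 0.820 ± 0.071 and 0.793 ± 0.0077, lower in 1 of 3 lines (exact permutation test, p = 0.9). The part of these differences in the results was not tested, and a lower signal from fewer cells of a kind cannot be told apart from less RNA per cell.

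Most of these transcripts had similar signals at both doses. Of the 87 members, 3 rose (Med11, Polr1e and Polr1c) and 5 fell (Polr3g, Med30, Gtf2e2, Taf4 and Polr3gl), and 79 were not called (limma, paired by line). That is 3.45% higher and 5.75% lower, beside 6.61% higher and 14.7% lower among all 9678 genes. The median log2 change was 0.03 among the members and -0.11 among all genes, and 78 members (89.7%) against 73% of all genes changed by less than 1.5-fold. Only Med11 reached 2-fold among the members (1.15%), as 9.97% of all genes did. Signals were higher in 3 of 3 lines for 31 members and lower in 3 of 3 for 27, or 35.6% and 31%, beside 23.7% and 41.3% of all genes. Without the block, 1 member rose (Med11) and 1 fell (Med30), beside 2.11% and 3.2% of all genes. In that fit 5 and 7 members had an unadjusted p under 0.05, which was not counted over all genes. With all arrays brought to the same median signal, the split was 4 higher and 4 lower, beside 785 and 1097 of all 9678 genes. The median was then 0.13 for the members and -0.01 for all genes. With either line 1, line 2 or line 3 left out, and with no minimum on the signal, 0 members were called in either direction by limma (3 to 5 higher and 5 to 11 lower at an unadjusted p under 0.05). Counts over all genes are not given for these settings.

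**Figure D1:**
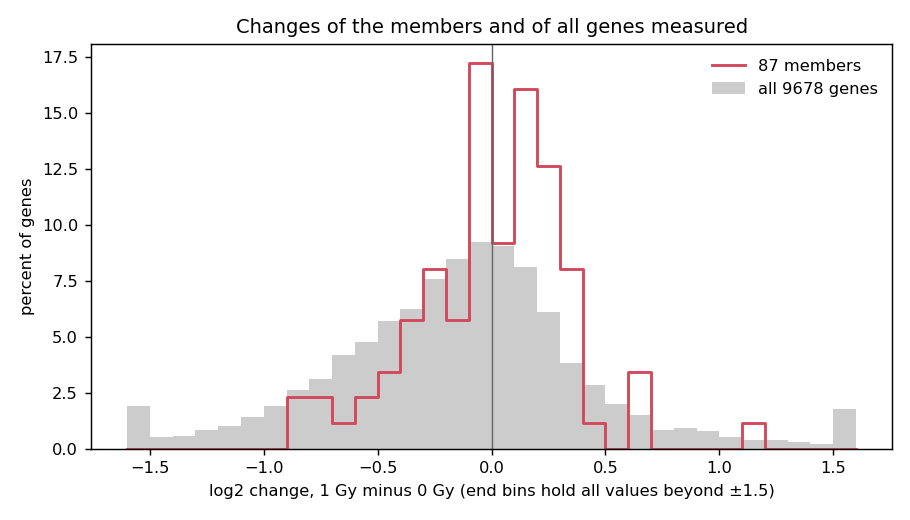
Percent of genes (vertical axis) in bins of the log2 change from 0 to 1 Gy (horizontal axis, bins of 0.1), for all 9678 genes (grey bars) and the 87 members (red outline). The members lie closer to 0, with -0.20 to 0.20 holding the middle of their changes (quartiles) against -0.46 to 0.17 among all genes.

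The 8 called genes changed in the same direction in each line. Med11, a small subunit of the Mediator head, had signals of 1048, 1017 and 909 at 0 Gy and 2056, 2341 and 2045 at 1 Gy (lines 1, 2 and 3). Every irradiated signal was above every mock signal, and the log2 change was 1.11 (standard error, SE, 0.12, limma adjusted p = 0.0147), a 2.17-fold rise. Polr1e, a subunit of RNA polymerase I, gave 378, 399.6 and 363 at 0 Gy and 543, 646 and 608 at 1 Gy. Polr1c, which RNA polymerases I and III share, gave 1244, 1346 and 1345 at 0 Gy and 1959, 1962 and 2143 at 1 Gy. For both genes the doses did not overlap, and the log2 changes were 0.65 (standard error 0.12) and 0.62 (standard error 0.11), with adjusted p of 0.0312 and 0.0309 from limma.

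Among the genes that fell, Med30, a subunit of the Mediator head found in animals, had signals of 1717, 1780.5 and 1573 at 0 Gy and 964, 1007 and 881 at 1 Gy. The lines agreed closely, and the log2 change was -0.83 (SE 0.11, limma adjusted p = 0.0180). Gtf2e2, the smaller subunit of TFIIE, which helps TFIIH to join the promoter complex, gave 2115, 2460.2 and 2045 at 0 Gy and 1234, 1618 and 1145 at 1 Gy. Taf4, a scaffold of TFIID, gave 491, 580.5 and 402 at 0 Gy and 323, 338 and 228 at 1 Gy. The doses did not overlap in either gene. Gtf2e2 fell by 0.74 and Taf4 by 0.73 on the log2 scale, with adjusted p of 0.0249 and 0.0249 (limma). Polr3g and Polr3gl, alternative forms of the same RNA polymerase III subunit, were the other two. Polr3gl gave 390.0, 375 and 634 at 0 Gy and 283, 248 and 333 at 1 Gy, and Polr3g gave 184, 183 and 72.9 at 0 Gy and 92.2, 88.9 and 46.3 at 1 Gy. The mock signal of Polr3gl was highest in line 3 and that of Polr3g lowest there. The doses of Polr3gl did not overlap, whereas the line 3 mock signal of Polr3g lay below 2 of its irradiated signals. The log2 changes were -0.66 (standard error 0.14, adjusted p = 0.0435) and -0.90 (standard error 0.14, adjusted p = 0.0225, limma). Polr3g passed the minimum through its mock arrays alone, and with signals under 100 set to 100 its log2 change was -0.58 and it was no longer called. Polr3gl was no longer called after quantile normalization (log2 change -0.54) or scaling to the same median (-0.57). Without the block, 6 of the 8 were no longer called, with adjusted p of 0.0533 for Polr1c, 0.0572 for Polr1e, 0.0821 for Gtf2e2, 0.128 for Taf4, 0.193 for Polr3gl and 0.319 for Polr3g (limma).

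**Figure D2:**
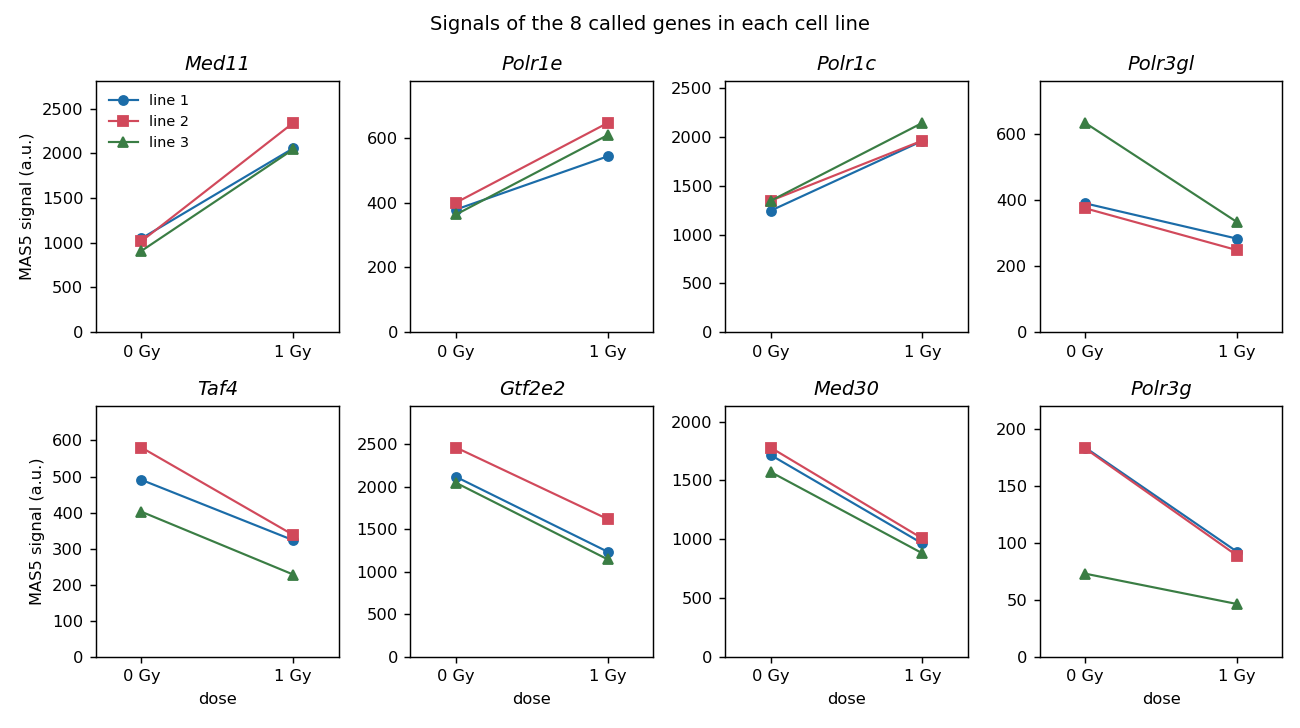
MAS5 signals (vertical axes, arbitrary units, starting at 0) of the 8 called genes at 0 and 1 Gy (horizontal axis), with 1 joined pair of points for each of 3 cell lines. All 3 lines rise for Med11, Polr1e and Polr1c and fall in the other 5 panels, and line 3 stands apart in Polr3gl and Polr3g.

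The DNA just before the transcription start of these genes is shown because they are the members that moved. RefSeq promoters (GRCm38.p6) were at hand for 6 of the 8. Each line gives the 100 bases before the start, read 5' to 3' on the strand of the gene. Capitals mark matches on either strand to 7 motifs, namely the ETS core, the GC box, the CCAAT box, the TATA box, an E-box, the NRF1 core and the κB motif, whose letters stand with their shares below, that of NF-κB by name alone. Overlapping matches of the GC box run together.
Med11 (chr11:70451818-70451917, plus strand): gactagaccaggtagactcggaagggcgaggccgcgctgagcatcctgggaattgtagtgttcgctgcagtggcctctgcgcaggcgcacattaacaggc
Polr1c (chr17:46248046-46248145, minus strand): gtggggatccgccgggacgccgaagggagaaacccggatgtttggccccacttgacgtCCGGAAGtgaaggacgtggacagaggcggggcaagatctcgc
Polr1e (chr4:45018509-45018608, plus strand): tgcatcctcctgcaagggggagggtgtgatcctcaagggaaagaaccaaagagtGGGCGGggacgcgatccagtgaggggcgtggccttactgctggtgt
Polr3g (chr13:81711014-81711113, minus strand): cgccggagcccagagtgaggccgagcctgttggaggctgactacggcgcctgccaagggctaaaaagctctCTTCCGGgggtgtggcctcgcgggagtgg
Polr3gl (chr3:96594182-96594281, minus strand): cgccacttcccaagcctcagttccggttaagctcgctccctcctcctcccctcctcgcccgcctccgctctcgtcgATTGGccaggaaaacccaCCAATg
Taf4 (chr2:179976647-179976746, minus strand): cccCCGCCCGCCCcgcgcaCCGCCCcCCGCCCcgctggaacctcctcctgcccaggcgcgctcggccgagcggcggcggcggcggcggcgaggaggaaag

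In these windows, Taf4 held 4 matches to the GC box and Polr1e held 1, Polr3gl held 2 to the CCAAT box, and Polr1c and Polr3g each held 1 to the ETS core. None of the 7 motifs was found in the window of Med11. Over all the members, 75 of 87 had a RefSeq promoter, with 88 windows. The ETS core, searched as CCGGAAG, was in 21.6% of these windows, beside 10.3% of the 10133 windows of all genes measured and 4.52% of all 32851 RefSeq windows. The NRF1 core, searched as GCGCATGC, was in 9.09% of the member windows, 3.08% of those of all genes measured and 1.49% of all. An E-box, with the letters CACGTG, was in 7.95% of the member windows, 4.9% of those of all genes measured and 3.17% of all. The TATA box, with the letters TATAAA, was in 5.68%, 2.15% and 5.56% in the same order. For the box that is named after its letters, CCAAT, the shares were 22.7%, 22.4% and 18.9%. For the GC box, spelled GGGCGG, they were 40.9%, 46.1% and 24.7%. The κB motif, the site that NF-κB binds, was in 0 of 88 member windows, 3.78% of those of all genes measured and 3% of all. A match is only a match of letters, and where a gene has several starts each was counted.

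RNA polymerase I subunits were higher where they were called. Of 5 measured genes named Polr1, 2 rose (Polr1e and Polr1c, above) and 0 fell, beside 6.61% higher and 14.7% lower among all genes. Without the block neither was called. Further subunits under other names (Twistnb, Cd3eap and Znrd1), given with the other genes of the machinery, were not called. The median log2 change of the 5 genes was 0.29, which is the value of Polr1d by its brightest probe set. The median was 0.22 after quantile normalization and 0.39 after scaling to the same median. Polr1e was measured by a second probe set, which gave a log2 change of 0.88 (SE 0.12, limma adjusted p = 0.0180), and the second of Polr1c gave 0.52 (adjusted p = 0.0666). The brightest probe set of Polr1e is of a kind (suffix x) whose probes may also bind other transcripts, whereas the second is not. That of Polr1c is of another kind (suffix s) whose probes may match more than 1 transcript. Its second probe set, which was not called, is of neither kind. Polr1d, which RNA polymerases I and III share, had signals of 6090.2, 5771 and 5816 at 0 Gy and 6845, 8318 and 6588 at 1 Gy (log2 change 0.29, adjusted p = 0.193 from limma). It was higher in 3 of 3 lines, but its 4 probe sets lay on both sides of 0. The dimmer ones gave log2 changes of -0.04, -0.003 and 0.002. Polr1a, the largest subunit, gave 228, 273 and 188 at 0 Gy and 232, 311 and 125 at 1 Gy. Its log2 change was -0.13 with a 95% interval of -0.63 to 0.38, and line 3 alone was clearly lower after 1 Gy. Polr1b, the second largest subunit, is the member nearest to the minimum. It gave 178, 73.5 and 59.2 at 0 Gy and 78.1, 80.8 and 106 at 1 Gy, and the lines went opposite ways.

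Called subunits of RNA polymerase III went both ways, since Polr3g and Polr3gl fell while the shared subunit Polr1c and Crcp, described with the other genes of the machinery, rose. Of the 9 measured genes named Polr3, 0 rose and 2 fell (22.2%, beside 14.7% of all genes called lower). By the brightest probe sets, signals were lower in 3 of 3 lines for 5 of them (55.6%, beside 41.3% of all genes). They were higher in 3 of 3 for 0 (beside 23.7% of all genes). Dimmer probe sets of Polr3a, Polr3d and Polr3e were higher in 3 of 3 lines but not called (log2 changes of 0.16, 0.51 and 0.37). Dimmer ones of Polr3b, Polr3c, Polr3f and Polr3k were lower in 3 of 3. The median log2 change was -0.21 (-0.16 after quantile normalization and -0.12 after scaling to the same median). The calls of Polr3g and Polr3gl are limited as described above, and neither was called by the test of dose alone that the methods name. Polr3g, which passed the minimum through the group where it was high, was not tested when 100 was required on 3 or more arrays. The subunits Polr3c, Polr3f and either Polr3g or Polr3gl form a trimer that acts in initiation. Beside the falls of Polr3g and Polr3gl, Polr3c had a log2 change of -0.21 (adjusted p = 0.253) and Polr3f of -0.10 (adjusted p = 0.711, limma), both chosen after their values were seen. Polr3k, a small subunit of transcript cleavage and termination, gave 1801, 2136 and 2179.8 at 0 Gy and 1366, 1641 and 1251 at 1 Gy. The doses did not overlap, yet the log2 change of -0.53 (standard error 0.14) was not called (adjusted p = 0.0691 from limma). All 4 of its tested probe sets were lower in 3 of 3 lines, and 1 of them was called (log2 change -0.80, adjusted p = 0.0232). Polr3a, the largest subunit, gave 869, 1134 and 1117 at 0 Gy and 1014, 1163 and 1051 at 1 Gy, with a log2 change of 0.06 and a 95% interval of -0.27 to 0.39. Polr3b, the second largest subunit, was chosen after its values were seen and had a log2 change of -0.40 (adjusted p = 0.116 from limma).

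Of the 8 measured genes of RNA polymerase II itself, 0 were called in either direction by limma, beside 6.61% higher and 14.7% lower among all genes. At an unadjusted p under 0.05, 1 was higher and 1 lower, beside 1204 and 2695 of all 9678 genes. Polr2a, the largest subunit, gave 1942, 2220.4 and 1883 at 0 Gy and 1789, 2092 and 1808 at 1 Gy. Its log2 change was -0.09 with a 95% interval of -0.38 to 0.20. A second, dimmer probe set of Polr2a went the other way (log2 change 0.46, adjusted p = 0.113). Polr2b, the second largest subunit, gave 5766, 5398 and 4777 at 0 Gy and 5854, 6381 and 5182 at 1 Gy (log2 change 0.13, adjusted p = 0.477). The 1 gene with an unadjusted p under 0.05 downward was Polr2g, part of the stalk of the enzyme, with 4701, 6293 and 4849 at 0 Gy and 3632, 4542 and 3065 at 1 Gy. At -0.50 on the log2 scale (standard error 0.12), it was not called (adjusted p = 0.0567, limma). The 1 upward, chosen after its values were seen, was Polr2m, which binds RNA polymerase II and hinders TFIIF, with a log2 change of 0.31 (adjusted p = 0.133).

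The subunits common to all 3 polymerases went different ways, and 0 of the 3 measured were called (limma, with 1 higher and 0 lower at an unadjusted p under 0.05). Among all 9678 genes, 6.61% were called higher and 14.7% lower, and 1204 and 2695 had such an unadjusted p. Polr2h gave 1676, 1226 and 1096 at 0 Gy and 2019.5, 2114 and 1961 at 1 Gy. Every irradiated signal was above every mock signal, but the lines rose by different amounts (log2 changes of 0.27, 0.79 and 0.84), and the mean of 0.63 (standard error 0.16) was not called (adjusted p = 0.0627). It was called after scaling to the same median, at 0.73. Polr2e gave 2569, 2772 and 2727 at 0 Gy and 2225, 2159 and 2364 at 1 Gy, a log2 change of -0.26 (adjusted p = 0.182, limma), and its second probe set had a change of 0.30.

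**Figure D3:**
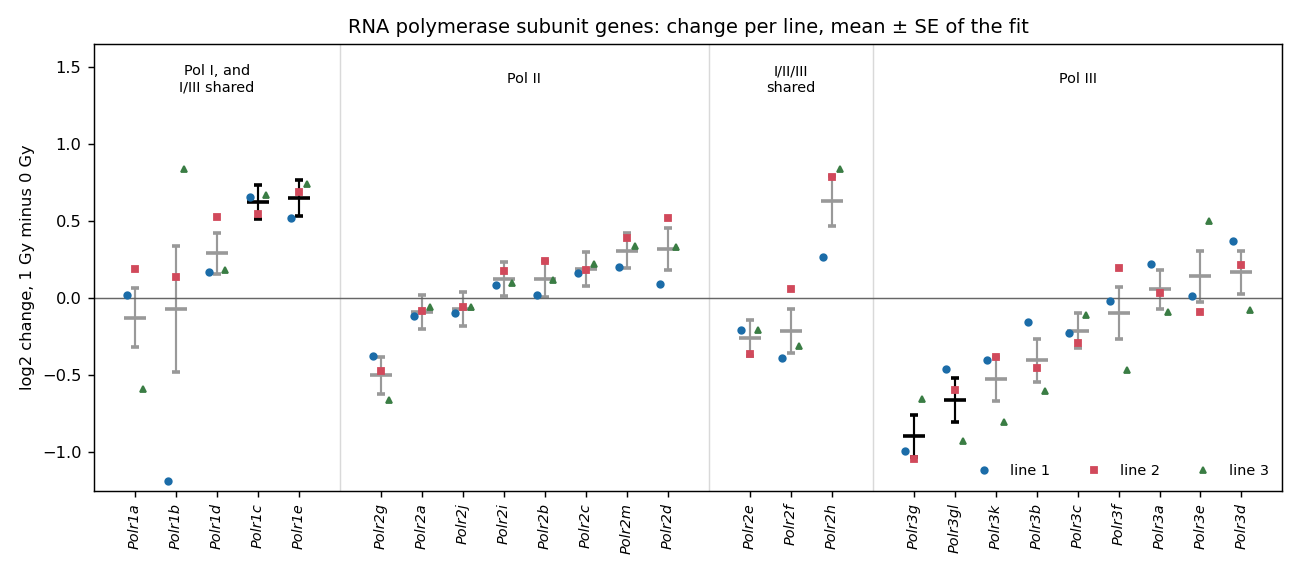
Log2 change from 0 to 1 Gy (vertical axis) of each RNA polymerase subunit gene (horizontal axis), grouped by enzyme. Coloured points are the 3 cell lines, bars are the mean with its standard error from limma, and black bars are the called genes. Polr1c and Polr1e lie above 0 and Polr3g and Polr3gl below it in all 3 lines, and the points of Polr1b spread furthest.

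Few Mediator genes were called, and both were in the head module. Of 29 measured Mediator genes, 1 rose and 1 fell (3.45% each, beside 6.61% and 14.7% of all genes). In 3 of 3 lines, 12 were higher and 6 lower, or 41.4% and 20.7%, beside 23.7% and 41.3% of all genes. The median log2 change was 0.08 (0.10 after quantile normalization and 0.17 after scaling to the same median). In the head, 8 genes were measured. Between the rise of Med11 and the fall of Med30, the other 6 had log2 changes from -0.24 (Med18) to 0.15 (Med20), and Med17, the central subunit of the head, gave 2298, 2474 and 2078 at 0 Gy and 2085, 2568 and 2059.8 at 1 Gy. The doses of Med17 overlapped (95% interval of the log2 change -0.34 to 0.27). Med22, which pairs with Med11 in the head and was chosen after its values were seen, gave 503, 529.7 and 437 at 0 Gy and 433, 546 and 419.8 at 1 Gy, with doses that overlapped and a log2 change of -0.08 (adjusted p = 0.675, limma).

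In the middle module, 0 of 9 genes were called, and 0 had an unadjusted p under 0.05 in either direction (limma). Among all 9678 genes, 6.61% were called higher and 14.7% lower, and 1204 and 2695 had such an unadjusted p. Signals were higher in 3 of 3 lines for 6 of the 9 genes of the module (66.7%) and lower in 3 of 3 for 0, beside 23.7% and 41.3% of all genes. The 6 include Med1, chosen after its values were seen, whose line 2 signals were nearly equal (2857 at 0 Gy and 2858 at 1 Gy). The median log2 change of the 9 genes was 0.13. Med21, a core subunit of the module, gave 915, 806 and 629 at 0 Gy and 975, 1129 and 887 at 1 Gy. It was the largest change there, at 0.36 (adjusted p = 0.146). Med10 gave 2836, 2629.9 and 2997 at 0 Gy and 3016, 3043 and 3181 at 1 Gy, with a log2 change of 0.13. In the tail and scaffold, 0 of 9 were called. In 3 of 3 lines, 3 were higher and 3 lower (33.3% each, beside 23.7% and 41.3% of all genes). Of the 9 genes, 1 was higher at an unadjusted p under 0.05 (limma). That gene was Med25, which activators bind, with 709, 1019 and 746 at 0 Gy and 1055, 1129 and 998 at 1 Gy (log2 change 0.38, adjusted p = 0.123). Its second probe set went the other way, at -0.30. Med28 gave 4929, 6142 and 5814 at 0 Gy and 5261, 5491 and 5289 at 1 Gy, and its doses overlapped.

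The kinase module, which holds Cdk8 or Cdk19 with cyclin C, Med12 and Med13, had 3 measured members and 0 calls (limma, with 1 higher and 0 lower at an unadjusted p under 0.05). Among all 9678 genes, 6.61% were called higher and 14.7% lower, and 1204 and 2695 had such an unadjusted p. Med13, which links the module to the core, gave 3742, 4729.5 and 4041 at 0 Gy and 3372, 3133 and 3196 at 1 Gy, and its relative Med13l gave 4756, 4532 and 5394 at 0 Gy and 5809, 6154 and 6555 at 1 Gy. Med13 was lower and Med13l higher in 3 of 3 lines, with log2 changes of -0.36 (95% interval -0.73 to 0.01) and 0.34 (95% interval 0.03 to 0.64). The other 4 tested probe sets of Med13 were on the other side of 0, up to 0.32. Med12, which activates the kinase and was chosen after its values were seen, had 1204, 1411 and 1288 at 0 Gy and 1604, 1634 and 1569 at 1 Gy (log2 change 0.30, adjusted p = 0.140 from limma). Its 3 irradiated signals were above its 3 mock signals.

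**Figure D4:**
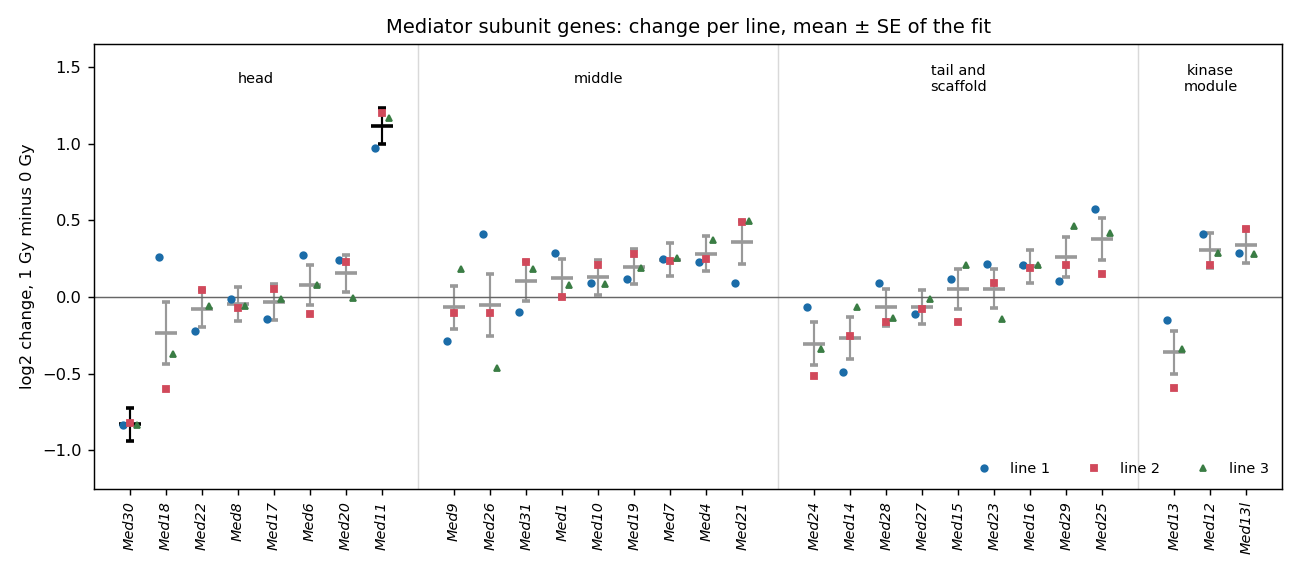
Log2 change from 0 to 1 Gy (vertical axis) of each Mediator gene (horizontal axis), grouped by module. Coloured points are the 3 cell lines, bars are the mean with its standard error from limma, and black bars are the called genes. Med11 and Med30 stand apart from the other 27 genes, which lie between -0.36 (Med13) and 0.38 (Med25).

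Taf4 was the 1 TFIID gene called. Of 13 measured TFIID genes, 0 rose and 1 fell (7.69%), beside 6.61% higher and 14.7% lower among all genes. In 3 of 3 lines, 2 were higher and 5 lower, or 15.4% and 38.5%, beside 23.7% and 41.3% of all genes. The median log2 change was -0.02, and it was 0.08 after scaling to the same median. The second probe set of Taf4 had a log2 change of -0.67 and was not called (adjusted p = 0.0526 from limma). The called probe set has the suffix s, so its probes may match more than 1 transcript, and the second has no such suffix. Taf12, which pairs with Taf4, and Taf13 were chosen after their values were seen. Taf12 gave 723, 904 and 697 at 0 Gy and 744, 1072 and 944 at 1 Gy and Taf13 gave 1025, 1381 and 1232 at 0 Gy and 710.1, 1177 and 828 at 1 Gy. Their log2 changes were 0.24 (adjusted p = 0.257) and -0.44 (adjusted p = 0.0822), and neither was called by limma. Taf10, which TFIID shares with the coactivator SAGA, gave 5849, 6226 and 5328 at 0 Gy and 5756, 6159 and 5844 at 1 Gy (95% interval of the log2 change -0.27 to 0.33). Taf3, a TFIID subunit that binds histone H3 and is among the 3 members nearest to the minimum, gave 238, 240.5 and 206 at 0 Gy and 162, 236 and 146 at 1 Gy. Lines 1 and 3 were clearly lower after 1 Gy and line 2 hardly so.

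The other TAF genes included the SL1 subunits, which serve RNA polymerase I (Taf1a to Taf1d), relatives of TAF in SAGA (Taf5l, Taf6l) and the RNA-binding protein Taf15. Of these 7, 0 were called, beside 6.61% higher and 14.7% lower among all genes. At an unadjusted p under 0.05 (limma), 1 was higher and 1 lower, beside 1204 and 2695 of all 9678 genes. Taf5l was the higher one, with 929, 772 and 761 at 0 Gy and 1046, 992 and 1071 at 1 Gy (log2 change 0.34, adjusted p = 0.129). The lower one, chosen after its values were seen, was Taf1b (log2 change -0.32, adjusted p = 0.135). Taf15 gave 1159.5, 1934 and 1245 at 0 Gy and 1265, 1971 and 1362 at 1 Gy, where line 2 was the highest at both doses.

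Of the 13 general factors from TFIIA to TFIIH and the TFII-I family, 0 rose and 1 fell (7.69%). Among all genes, 6.61% rose and 14.7% fell. Of the 2 TFIIE subunits 1 was called, and the difference between them was not tested. Gtf2e1, the larger partner of Gtf2e2, gave 2552, 2336 and 2413 at 0 Gy and 2625, 2172 and 2716 at 1 Gy, with doses that overlapped and a log2 change of 0.04 (95% interval -0.29 to 0.36). Both TFIIF subunits, chosen after their values were seen, were higher in 3 of 3 lines. Gtf2f1 gave 1155, 1072 and 1000.2 at 0 Gy and 1494, 1448 and 1350.0 at 1 Gy, without overlap of the doses, and its log2 change of 0.41 (standard error 0.11) missed the threshold (limma, adjusted p = 0.0676). Gtf2f2 had a log2 change of 0.27 (adjusted p = 0.227). In TFIIA, Gtf2a1, the large subunit precursor, gave 811, 962 and 1080.0 at 0 Gy and 622, 733 and 659 at 1 Gy, a log2 change of -0.50 that was not called (adjusted p = 0.0661), and 1 of its 3 probe sets lay above 0. Gtf2a2, the small subunit, gave 3329, 3421 and 3059 at 0 Gy and 3045, 3152 and 2709.8 at 1 Gy (log2 change -0.14).

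None of the 4 measured TFIIH genes was called (limma, with 0 higher and 1 lower at an unadjusted p under 0.05). Among all 9678 genes, 6.61% were called higher and 14.7% lower, and 1204 and 2695 had such an unadjusted p. Gtf2h4, a subunit that anchors the XPB helicase, gave 944, 952 and 1229 at 0 Gy and 697, 814 and 898 at 1 Gy, a log2 change of -0.37 (adjusted p = 0.0990). Gtf2h5, the smallest subunit, needed in TFIIH for DNA repair, gave 2622, 2240.3 and 1873 at 0 Gy and 2261, 2356 and 1917 at 1 Gy, and its doses overlapped. Gtf2i (TFII-I), a factor first found through initiator elements, gave 3500.3, 4365 and 3673 at 0 Gy and 3572, 3423 and 3143 at 1 Gy (log2 change -0.18, adjusted p = 0.372).

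**Figure D5:**
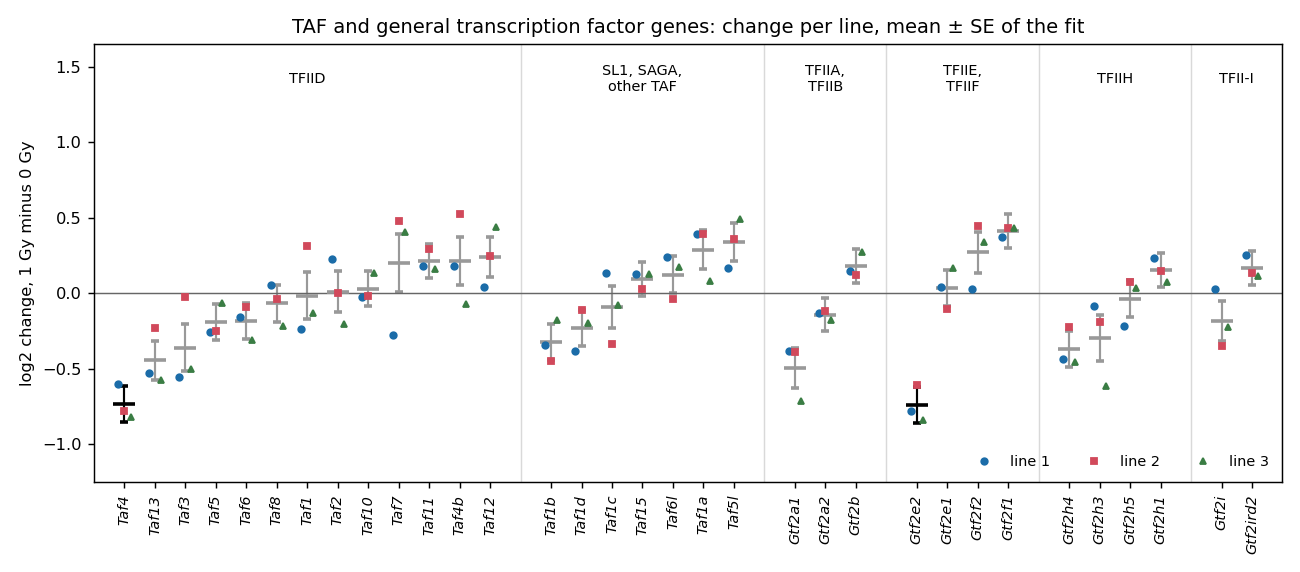
Log2 change from 0 to 1 Gy (vertical axis) of each TAF and general transcription factor gene (horizontal axis), grouped by complex. Coloured points are the 3 cell lines, bars are the mean with its standard error from limma, and black bars are the called genes. Taf4 and Gtf2e2 lie below 0 in all 3 lines, and most other genes lie within the range from -0.50 (Gtf2a1) to 0.41 (Gtf2f1).

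Of 67 other measured genes of the transcription machinery (TFIIH kinase and helicases, the TATA-binding protein and its relatives, Mediator kinases, factors and further subunits of RNA polymerases I and III, pausing and elongation factors, and mitochondrial transcription), 2 rose and 4 fell, or 2.99% and 5.97% (limma). Among all genes the shares were 6.61% and 14.7%. The median log2 change was 0.02 for these 67 genes and -0.11 for all genes. The 6 were chosen after their values were seen. Gtf3a (TFIIIA), which RNA polymerase III needs for 5S ribosomal RNA genes, had signals of 2009, 1861 and 1776 at 0 Gy and 819, 1056 and 893 at 1 Gy. It fell by 1.03 on the log2 scale (standard error 0.14, adjusted p = 0.0192, and 0.0304 without the block, limma). Crcp, a subunit of RNA polymerase III, went the other way, with 1048, 1062 and 889 at 0 Gy and 1459, 1482 and 1281 at 1 Gy, a log2 change of 0.49 (adjusted p = 0.0462). Cdk19, a kinase of the Mediator kinase module, fell by 0.69 and Mnat1, which assembles the TFIIH kinase, rose by 0.63 on the log2 scale. The elongation factor gene Aff1 fell by 0.66 and Tfb1m, a methyltransferase of mitochondrial ribosomal RNA, by 0.84. Without the block, Gtf3a alone of these 6 was called, and the adjusted p of the other 5 was 0.0717 to 0.346 (limma). The subunits of RNA polymerase I listed under older names (Twistnb, Cd3eap and Znrd1), also chosen after their values were seen, had log2 changes of 0.09, 0.28 and 0.19 and were not called (adjusted p of 0.648, 0.328 and 0.346).

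Few members differed between the lines. By limma's F test of the line in the same fit, 2 of 87 members (2.3%) differed between lines, beside 9.7% of all genes, and the median range between the line means was 0.29 on the log2 scale, beside 0.40. Taf4b, a relative of Taf4 that was first described in B cells, gave 596, 577 and 1593 at 0 Gy and 676, 832 and 1518 at 1 Gy. Line 3 was the highest at both doses, the line means spanned 1.29 on the log2 scale (adjusted p = 0.0413 for the line, limma), and the log2 change with dose was 0.21 (adjusted p = 0.384). Polr3g, whose signals are given above, was lowest in line 3, with a span of 1.16 (adjusted p = 0.0354 for the line, limma). Both of its line 3 signals (72.9 and 46.3) were under the minimum of 100. With 100 required on 3 or more arrays it was not tested, and 1 member differed between lines. With signals under 100 set to 100, 1 member did. Polr1a had the next widest span, at 0.93, and was not called (adjusted p = 0.135). Each line was measured once per dose, so the difference between lines was tested over both doses together.

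Where a gene had several probe sets, they mostly went the same way. Of the 40 members with over 1 tested probe set (101 probe sets), 29 had all of them on the same side of 0 and 11 did not, and 0 had probe sets called in both directions. When the probe sets of each gene were averaged instead, 5 members rose and 7 fell, and these included all 8 called above. Of those 8, only Polr1c, Polr1e and Taf4 had over 1 tested probe set. Averaging left the log2 changes of the others as they were, so it could not test them. At the minimum, the members just inside were Polr1b, Polr3g and Taf3, with highest signals of 178, 184 and 240.5, and the genes just outside were Taf7l2, Med12l and Gtf2ird1, with 49.5, 41.5 and 34.6.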

How the data were processed

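Total RNA from 6 cultures was hybridised to Affymetrix Mouse 430 2.0 arrays. The deposited values were linear intensity signals per probe set, which the authors made with MAS5 per the labels' processing notes. They are scaled to a trimmed mean of 500 per array (2% of probe sets trimmed at either end). The RMA and quantile normalization named in the paper's methods are not part of these values. The 64 control probe sets were left out, signals under 1 were set to 1, and log2 was taken. The 21762 of 45037 probe sets with 100 or more on at least 1 array were fitted with limma (version 3.58.1, R 4.3.3), with dose and cell line as factors and Benjamini-Hochberg adjustment. The paper's ANOVA names dose only, and that fit is given as an alternative. The series design says that a line was split between the doses, so replicate numbers mark the lines. Deviations from the group means correlated at 0.668 to 0.781 within a number and at -0.495 to -0.053 between numbers. The paired fit takes out the difference in level between lines. Its p-values for dose weigh a change against how much the dose changes differed between lines, with a variance that limma partly shares across probe sets. The number of arrays limits the precision.

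Gene names came from the platform annotation. Of 45037 probe sets, 34945 had 1 symbol, 932 had several and were left unnamed (those of Taf9, Polr2k and Polr2l among them) and 9160 had none there. Members, gene lists and complexes were chosen with earlier results of these data known, from textbook knowledge of each complex. The text names all called members (at most 12 in each direction), in each complex the member with the largest change and the brightest, the largest polymerase subunits, the 3 members that differ most between lines and the 3 genes on each side of the minimum. Others are marked as chosen after their values were seen. Intervals are 95% intervals of limma. The fit was tested on simulated data. Alternatives were the fit without the block, other minima, a pseudocount of 16 before log2, a floor of 100, quantile normalization, one median for all arrays, limma-trend, an added 1.5-fold, the methods' ANOVA, the mean of all probe sets, and leaving out each line. Promoter windows came from RefSeq (GRCm38.p6).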

Additional observations from a re-analysis of the deposited data

How the results depend on the processing

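Beside 3 members higher and 5 lower in the fit paired by line, the fit with no replicate block called 1 and 1. With no filter 0 and 0 were called (3 and 5 at an unadjusted p under 0.05, limma). A minimum of 100 on 3 or more arrays gave 5 higher and 7 lower, a floor of 100 gave 5 and 6, limma-trend 8 and 11, and the mean of all probe sets 5 and 7. The methods' ANOVA with an unadjusted p of 0.05 or less and 1.5-fold called 4 higher and 3 lower, and 2 and 1 after Benjamini-Hochberg adjustment. Without replicate 1, 2 or 3 the counts were 0 to 0 in each direction, with 3 to 5 higher and 5 to 11 lower at an unadjusted p under 0.05 (limma), from fewer arrays. The counts with quantile normalization (3 and 4), a common median (4 and 4), log2 of the signal plus 16 (4 and 6) and an added 1.5-fold (3 and 5) stayed within 1.5 times. Among all 9678 genes, 204 rose and 310 fell without the block, 663 and 1194 with quantile normalization, and 785 and 1097 with a common median. Counts over all genes are not given for the other alternatives, so the members' counts there cannot be read as particular to them. The median log2 change of the members was 0.03 to 0.13 over these alternatives. Among the 8 called genes, a sign could turn only with quantile normalization, a common median or, for Polr1c, Polr1e and Taf4, the mean of all probe sets. None turned there. The other alternatives could not turn a sign, because each of the 8 moved the same way in all 3 lines. Polr3g gave no value with 100 required on 3 or more arrays. The added 1.5-fold could remove no call, as all 8 changed by more. Med11 and Med30 were called under each alternative that used all 3 lines and the minimum. In place of 2 members that differed between lines, there was 1 with the stricter minimum, 1 with the floor of 100, 5 with limma-trend and 0 with no filter, and 2 under the other alternatives in which all 3 lines were tested. With 3 arrays per dose, the smallest called log2 change among the members was 0.62, so smaller changes may be missed.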
